A study of Homo sapiens with 6 samples.

Results

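The matrix metalloproteinases MMP1, MMP2 and MMP9 and the tissue inhibitors TIMP1 and TIMP3 were measured by PCR array in Panc-1 cells, a human pancreatic cancer line. They are all the genes with a symbol beginning with MMP or TIMP, 5 of the 89 genes in the table. The array was run on 6 plates, 2 for each of 3 conditions. Tet-on driver cells carried only the doxycycline-responsive transactivator and were cultured in 1 μg/ml doxycycline. Tet-on CaSm cells were made from a subset of the driver pool and also carried full-length human CaSm behind a doxycycline-responsive promoter. They were analyzed without doxycycline (non-induced) and with the same 1 μg/ml (induced). Each culture lasted 4 weeks, and both lines were stable antibiotic-selected pools, with puromycin as an added selection in the CaSm line. Driver cells without doxycycline were not analysed here, so in induced against non-induced cells CaSm and doxycycline cannot be told apart.

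Matrix metalloproteinases are secreted zinc enzymes that cut extracellular matrix and are made as inactive precursors. MMP1 is an interstitial collagenase that cleaves fibrillar collagen, while MMP2 and MMP9 are gelatinases that degrade denatured collagen and basement membrane collagen. TIMP proteins bind the active site of these enzymes and block them, and TIMP3 is held in the matrix. The array read RNA only, so precursor activation and enzyme activity were not measured. Tetracyclines, doxycycline among them, are known to inhibit these enzymes as proteins. In RNA from a whole culture, fewer expressing cells and less RNA per cell cannot be told apart.

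Plates are numbered by a mark in the sample titles, whose meaning is not stated. The driver plates are replicates 2 and 3, and the plates of each CaSm condition are replicates 1 and 2. Separate cultures are not stated for the 2 plates of a condition, so p-values measure a spread that may be technical. The threshold cycle (Ct) is the PCR cycle at which product is detected, so that a gene read 1 cycle later had about 1 log2 unit less RNA. The reference genes B2M, HPRT1 and GAPDH averaged 19.7 to 20.3 cycles per plate, and this average was subtracted from each gene's Ct to give ΔCt. After this scaling the median detected gene was still 0.35 log2 units higher on induced replicate 1 than on induced replicate 2. None of 7 epithelial and ductal markers looked for was on the array, so the identity of the cells could not be checked from these values. CaSm itself was not analysed here.

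The 250 bases before the transcription start are shown for the TIMP genes, one detected early and one at the detection limit in these cells. Of the 5 genes, 2 matched an entry in the RefSeq promoter table (GRCh38.p14), TIMP1 at chrX:47582186-47582435 and TIMP3 at chr22:32801455-32801704, both on the plus strand. Capitals mark matches to TGAGTCA, the AP-1 site bound by FOS and JUN, to its variant TGAGTAA, and to AGGAAG, a core bound by ETS factors, searched on both strands.
TIMP1: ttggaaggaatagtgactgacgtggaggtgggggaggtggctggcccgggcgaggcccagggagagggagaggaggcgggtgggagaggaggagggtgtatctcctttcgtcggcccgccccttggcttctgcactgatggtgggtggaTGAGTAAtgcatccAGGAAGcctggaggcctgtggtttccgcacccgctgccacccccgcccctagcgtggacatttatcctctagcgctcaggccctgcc
TIMP3: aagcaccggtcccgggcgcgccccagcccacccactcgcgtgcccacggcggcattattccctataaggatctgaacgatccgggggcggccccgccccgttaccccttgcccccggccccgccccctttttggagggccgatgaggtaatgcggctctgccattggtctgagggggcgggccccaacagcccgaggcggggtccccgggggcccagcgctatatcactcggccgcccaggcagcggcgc
The TIMP1 stretch held TGAGTAA, starting 101 bases before the transcription start, and AGGAAG, starting 87 bases before it. Among 35116 promoter windows of this length, TGAGTCA was found in 4.20%, TGAGTAA in 2.21% and AGGAAG in 28.7%. The TIMP3 stretch held none of these letters, had a GC content of 72.4% against 64.8% for TIMP1, and contained 26 CG dinucleotides against 12. Fewer CG dinucleotides than in TIMP3 were found in 80.4% of the windows, and fewer than in TIMP1 in 51.5%. Binding and methylation were not measured.

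The 5 genes ranged from early detection to the detection limit. TIMP1 came first among them, at a Ct between 21.3 and 22.2 on all plates, which ranked it 14 of 89 genes by mean Ct. MMP2 followed at 23.3 to 24.3, rank 30, and MMP9 at 28.8 to 29.2, rank 69. MMP1 was late, at 30.7 to 32.3 and rank 73, a mean of 3.18 cycles before a Ct of 35. Its 4 control plates lay past a Ct of 32, the value set here as near the limit, and both induced plates before it. TIMP3 was at the detection limit: its Ct was 35 or later on 5 of 6 plates and 40 on 1 of them, and its mean ranked 88 of 89. Of the array's genes, 79 had a Ct under 35 on every plate, including 4 of these 5. The ranges of neighbouring genes in this order did not overlap on any plate, but Ct values of different genes compare only as far as their primers amplify alike, which was not tested.

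**Figure D1:**
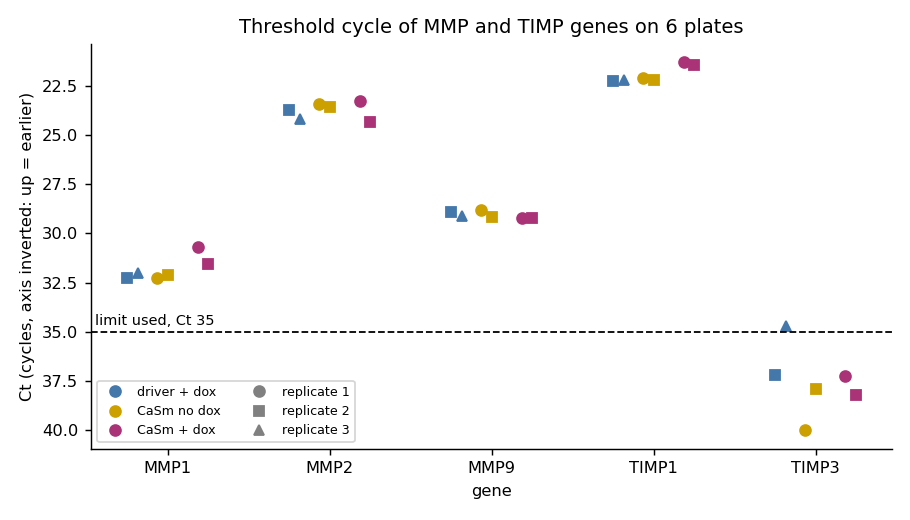
Ct in cycles (vertical axis, inverted) of the 5 genes on each of the 6 plates, with colour for the condition, shape for the replicate and a dashed line at a Ct of 35. TIMP1 and MMP2 lie between 21.3 and 24.3 cycles, MMP9 near 29, MMP1 between 30.7 and 32.3, and TIMP3 past 35 on 5 plates.

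MMP1, the collagenase, was higher in induced cells than in both controls and was the only one of the 5 genes called in either comparison. Its ΔCt was 10.9 and 11.3 in induced cells, 12.2 and 11.8 in driver cells, and 11.9 on both plates of non-induced cells. Both induced plates therefore lay above all 4 control plates in RNA level, and the controls did not separate from each other. Against driver cells the log2 fold change was 0.85 (standard error 0.257, 95% interval 0.28 to 1.41, adjusted p = 0.0384 from limma), a 1.80-fold increase. Against non-induced cells it was 0.80 (standard error 0.255, 95% interval 0.23 to 1.36, adjusted p = 0.0454), a 1.74-fold increase. Non-induced and driver cells differed in MMP1 by 0.05 (95% interval −0.52 to 0.61, adjusted p = 0.955). Between plates that share a title mark, MMP1 was higher in induced cells by 0.83 log2 units against driver cells and by 1.00 and 0.60 against non-induced cells. Neither call was stable: it was kept in 2 of 11 alternative fits against driver cells, with an adjusted p of 0.126 once the variance was allowed to depend on the expression level, and in 4 of 11 against non-induced cells. Leaving out any 1 plate other than induced replicate 2 ended each call. Without induced replicate 1 the difference was 0.64 against driver cells (adjusted p = 0.196) and 0.59 against non-induced cells (adjusted p = 0.197).

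The 2 gelatinases did not share the increase of MMP1. MMP2, the earlier detected of them, had a ΔCt of 3.54 and 4.15 in induced cells, 3.62 and 3.95 in driver cells, and 3.08 and 3.38 in non-induced cells. The induced plates spanned the driver plates and lay below both non-induced plates in RNA level. The log2 fold change of MMP2 was −0.06 against driver cells (95% interval −0.67 to 0.56, adjusted p = 0.869) and −0.61 against non-induced cells (standard error 0.28, 95% interval −1.23 to 0.01, adjusted p = 0.151). Non-induced cells had more MMP2 than driver cells by 0.55, also not called (adjusted p = 0.261). With the median of detected genes as the reference this difference between the controls was 0.01. That reference shifted every gene in the comparison by −0.54 and moved the median of all genes tested from 0.20 to −0.345. With a variance that depended on expression, the difference of induced from non-induced cells was called (adjusted p = 0.0372), as it was with B2M as the only reference (adjusted p = 0.0076). Between plates with the same mark, MMP2 was lower in induced cells by 0.46 and 0.76 log2 units against non-induced cells. Against driver cells the only such pair, of replicate 2, differed by 0.53 in the same direction. Induced replicate 1, however, had more MMP2 than both driver plates.

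MMP9 had a ΔCt of 9.47 and 9.01 in induced cells, 8.80 and 8.89 in driver cells, and 8.46 and 8.96 in non-induced cells. Both induced plates lay below all control plates, although induced replicate 2 was only 0.04 cycles from non-induced replicate 2. The log2 fold change was −0.39 against driver cells (standard error 0.27, 95% interval −0.99 to 0.20, adjusted p = 0.320) and −0.53 against non-induced cells (standard error 0.27, 95% interval −1.13 to 0.07, adjusted p = 0.200). Neither passed the threshold. Without induced replicate 1 the difference from driver cells was −0.16, and without induced replicate 2 it was −0.62.

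TIMP1, a broad inhibitor of secreted MMPs, had a ΔCt of 1.58 and 1.28 in induced cells, 2.15 and 1.98 in driver cells, and 1.74 and 2.02 in non-induced cells. The induced plates lay above all 4 control plates, as for MMP1. The log2 fold change was 0.64 against driver cells (standard error 0.25, 95% interval 0.09 to 1.18), a 1.55-fold difference that was not called (adjusted p = 0.0843). Against non-induced cells it was 0.45 (95% interval −0.09 to 1.00, adjusted p = 0.219), and the controls differed by 0.18 (adjusted p = 0.737). TIMP1 was called against driver cells in 2 of 12 alternative fits, with an adjusted p of 0.0078 when the variance depended on expression and of 0.0117 with GAPDH as the only reference. On plates of the same mark the difference was 0.87 against driver cells and 0.16 and 0.75 against non-induced cells.

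**Figure D2:**
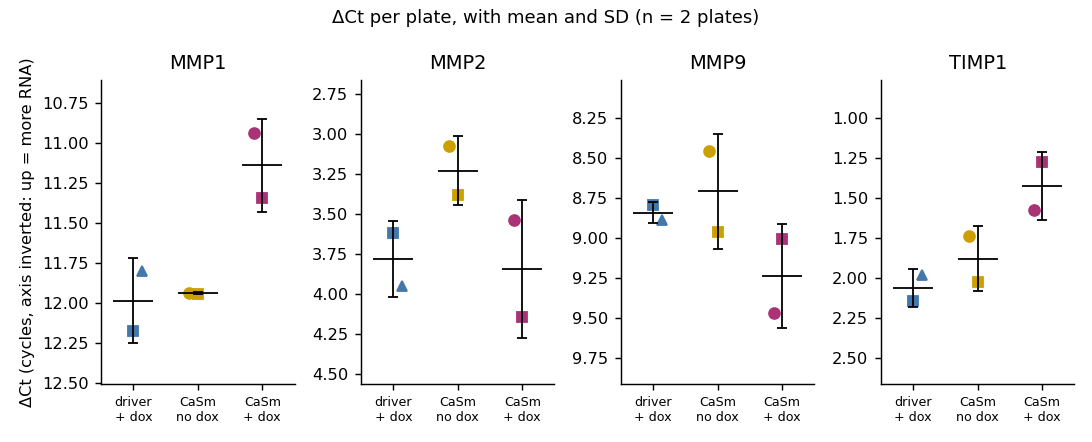
ΔCt in cycles (vertical axis, inverted) of MMP1, MMP2, MMP9 and TIMP1 on each plate, with the mean and SD of 2 plates in black and shapes for replicates 1 (circle), 2 (square) and 3 (triangle). The induced plates (CaSm + dox) lie above all control plates for MMP1 and TIMP1, below them for MMP9, and across the driver plates for MMP2.

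TIMP3 had a Ct of 37.2 and 34.7 in driver cells, 40 and 37.9 in non-induced cells, and 37.2 and 38.2 in induced cells. Only driver replicate 3 was under 35, so no fold change is given. TIMP3 stays among the 5 genes in the counts against driver cells with its other plates held at 35, where its values in the fit differ mainly through the reference genes, and it was not tested against non-induced cells.

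The share of all genes called in the same fit sets these counts in context. Against driver cells 1 of the 5 genes was called, compared with 23.5% of the 85 genes tested, and the plates did not overlap for 3 of the 5, compared with 54.1%. Against non-induced cells 1 of the 4 tested was called, compared with 24.1% of 83 genes, and the plates did not overlap for all 4, compared with 61.4%. Between the control conditions none of the 5 was called, compared with 7.06% of 85 genes, and the plates did not overlap for 1, MMP2, compared with 50.6%. None of the 5 had p under 0.05 before adjustment in that comparison. The median log2 fold change of the 5 genes against driver cells was −0.06, with TIMP3 included although it has no usable fold change. That of all genes tested was −0.08. The 4 detected genes stood at 0.85 (MMP1), 0.64 (TIMP1), −0.06 (MMP2) and −0.39 (MMP9). The 3 genes with plates apart in this comparison, MMP1, TIMP1 and MMP9, were all among these 4. Against non-induced cells the medians were −0.04 for the 4 tested and −0.21 for all genes. With 1 gene called in each comparison of induced cells, these shares show nothing particular to the group. Both comparisons share the induced plates. With 2 plates against 2, an exact two-sided permutation test of a single gene cannot give p under 0.333, so limma alone was used.

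**Figure D3:**
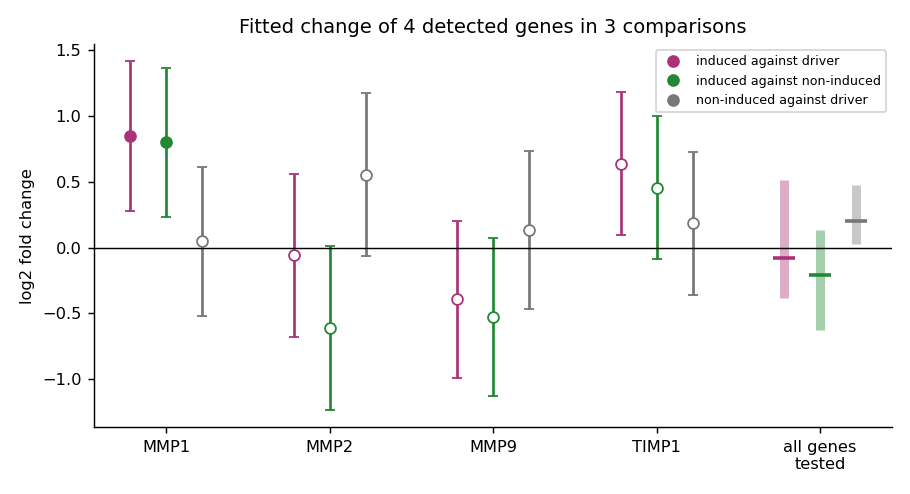
Log2 fold change with its 95% interval from limma for the 4 detected genes in 3 comparisons, filled where the adjusted p was under 0.05, beside the median and quartiles of all genes tested. MMP1 is called in both comparisons of induced cells (0.85 and 0.80), and no gene of the 4 is called between the controls.

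The balance of protease to inhibitor RNA was taken on each plate as the Ct of TIMP1 minus the Ct of an MMP, so that the reference genes drop out. A more negative value means less protease RNA relative to TIMP1. These values are descriptions and were not tested. The balance of MMP9 was −7.89 and −7.73 cycles in induced cells, −6.65 and −6.91 in driver cells, and −6.72 and −6.94 in non-induced cells. Both induced plates lay well below the controls, and the mean fell by 1.03 against driver cells and by 0.98 against non-induced cells, a ratio 2.04-fold and 1.97-fold lower. The spread between plates of a condition was 0.11 to 0.18 cycles (SD, n = 2). Leaving out each plate in turn gave differences of −1.16 to −0.90 against driver cells and −1.09 to −0.87 against non-induced cells. In the fit, TIMP1 stood at 0.64 and MMP9 at −0.39 against driver cells. Against non-induced cells they stood at 0.45 and −0.53, and none of these was called. Relative to TIMP1, plates were also apart for 61.3% of 75 detected genes against driver cells and for 70.7% against non-induced cells.

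The balance of MMP2 was −1.96 and −2.87 cycles in induced cells, −1.47 and −1.97 in driver cells, and −1.34 and −1.36 in non-induced cells. It overlapped the driver plates by 0.01 cycles and lay below the non-induced plates, with a mean difference of −1.07 from them (pooled SD 0.46). That difference was −1.52 without induced replicate 1 and −0.61 without induced replicate 2. Against driver cells the mean difference was −0.70, and it was −1.15 and −0.24 without the same plates and −0.45 without driver replicate 2. The balance of MMP1 was −9.36 and −10.07 in induced cells, −10.03 and −9.82 in driver cells, and −10.2 and −9.92 in non-induced cells. Here the induced plates enclosed or overlapped both controls, and the mean differences of 0.21 and 0.35 were smaller than the pooled SD of 0.37 and 0.38. Without a plate the MMP1 difference ran from −0.15 to 0.57 against driver cells and from −0.01 to 0.70 against non-induced cells, and on plates of replicate 1 alone it was 0.84 against the latter.

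Averaged over the 3 proteases, the balance against TIMP1 was −6.65 ± 0.34 cycles in induced cells, −6.14 ± 0.13 in driver cells and −6.08 ± 0.01 in non-induced cells (SD, n = 2). A shift of this direction was common on the array. Relative to TIMP1, the median of 75 detected genes, the 3 proteases included, differed by −0.66 log2 units against driver cells and by the same amount against non-induced cells. Induced and driver plates were apart for 61.3% of those genes on this scale, and induced and non-induced plates for 70.7%. In this ranking from the lowest, MMP9 stood at 16 of 75 against driver cells and 20 against non-induced cells, MMP2 at 36 and 18, and MMP1 at 66 and 70. With TIMP3 included at a Ct of 35, the balance of all 3 proteases against both inhibitors was 0.16 ± 0.40 in induced, 0.18 ± 0.22 in driver and 0.35 ± 0.03 in non-induced cells. That value is a lower bound wherever TIMP3 was past 35.

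**Figure D4:**
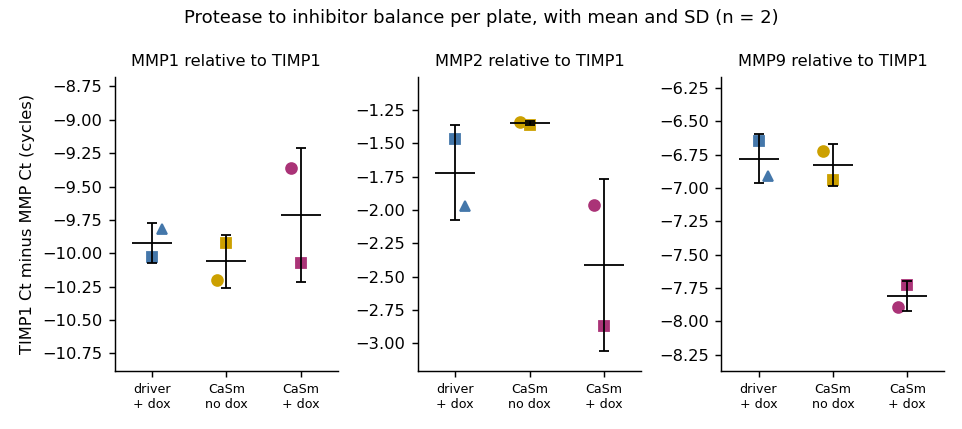
Ct of TIMP1 minus Ct of MMP1, MMP2 or MMP9 in cycles on each plate, with the mean and SD of 2 plates in black and symbols as for ΔCt. For MMP9 the induced plates lie at −7.89 and −7.73, below all 4 control plates, and for MMP1 they overlap the controls.

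Scaling moved all genes together and so decided part of these values. With B2M as the only reference every log2 fold change of induced against driver cells was 0.47 lower, and with GAPDH alone it was 0.39 higher. Over the 4 other references MMP1 ranged from 0.38 to 1.24 and TIMP1 from 0.17 to 1.03, both positive throughout, against driver cells. MMP2 ranged from −0.53 to 0.34, and its sign turned with HPRT1 alone and with GAPDH alone. MMP9 ranged from −0.86, called with B2M alone (adjusted p = 0.0219), to 0.00 with GAPDH alone. Against non-induced cells every reference kept the sign of the 4 genes, with MMP1 between 0.40 and 1.14 and MMP9 between −0.93 and −0.19. The order of the genes within a comparison does not depend on the reference, and in both comparisons of induced cells MMP1 was the highest of the 4 and MMP9 or MMP2 the lowest. Between the controls MMP2 was the highest and MMP1 the lowest.

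**Figure D5:**
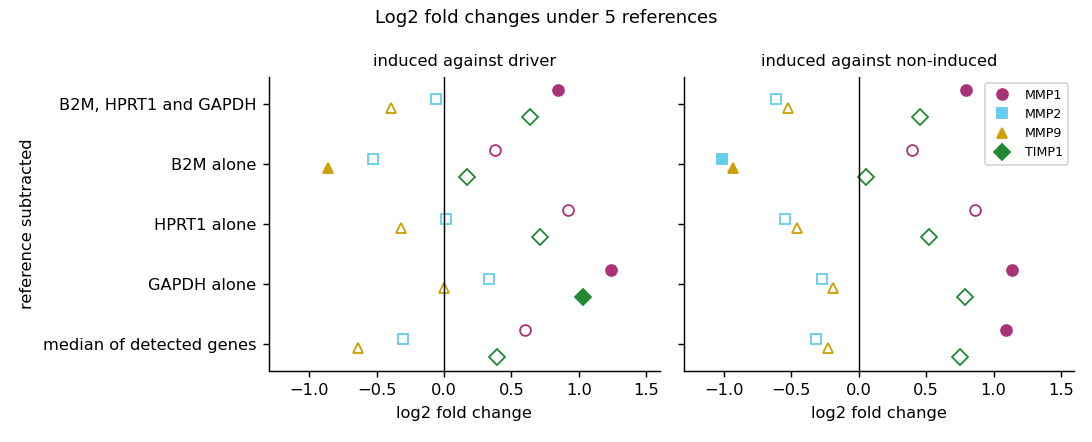
Log2 fold change of the 4 detected genes (horizontal axis) under 5 references (vertical axis), filled where the adjusted p was under 0.05. Against driver cells MMP1 runs from 0.38 (B2M) to 1.24 (GAPDH), and the 4 genes keep their spacing.

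Genes whose pattern over the 6 plates was most like each member were found by the root mean square difference of gene-centred ΔCt over 75 other detected genes. For MMP1 these were MAP2K1 (0.26 cycles), TIMP1 (0.27) and HTATIP2 (0.27), against a median gene at 0.54. For TIMP1 they were MAP2K1 (0.16), EPDR1 (0.18) and PNN (0.18), against a median of 0.46. MMP2 was closest to MCAM (0.08), TGFB1 (0.13) and BAX (0.13), with a median of 0.35, and MMP9 to S100A4 (0.14), ITGAV (0.18) and PDGFB (0.19), with a median of 0.44. For scale, the root mean square of each member about its own mean was 0.42 cycles for MMP1, 0.30 for TIMP1, 0.35 for MMP2 and 0.30 for MMP9. Relative to this, the closest genes of MMP1 followed it less well than those of MMP2. Offsets that a plate gives to all genes were not removed beyond the reference genes, and their part in this likeness was not tested.

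Other genes of pericellular proteolysis were read from the same fit. Of PLAU, PLAUR and SERPINB5, which encode the protease urokinase, its receptor and the serpin maspin, 1 rose and 1 fell against driver cells and none was called against non-induced cells, where 23.5% and 24.1% of all genes tested were called. PLAUR was 1.54 log2 units higher than in driver cells (adjusted p = 0.0015) and 0.38 higher than in non-induced cells (adjusted p = 0.288). SERPINB5 was late, at a Ct of 32.5 to 34.0, past the value set here as near the limit on every plate. It was 0.82 lower than in driver cells (adjusted p = 0.0428) and 0.11 higher than in non-induced cells (adjusted p = 0.803). The controls differed in SERPINB5 by −0.94 (adjusted p = 0.0538). PLAUR also differed between the controls (1.16, adjusted p = 0.0236), unlike MMP1.

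Of 6 factors and signals known to act on MMP genes (FOS, JUN, ETS2, NFKB1, TNF and TGFB1), none rose and 2 fell against driver cells, and 1 rose and 2 fell against non-induced cells, beside the same 23.5% and 24.1% of all genes. ETS2, an ETS transcription factor, fell by 1.72 against driver cells (adjusted p = 0.00066) and by 1.23 against non-induced cells (adjusted p = 0.00505). FOS, a subunit of AP-1, fell by 1.05 against non-induced cells (adjusted p = 0.0379) and stood at −0.85 against driver cells (adjusted p = 0.0640). JUN, its partner, had log2 fold changes of −0.07 and −0.32 in the same order (adjusted p = 0.869 and 0.520). The cytokine TNF was 0.97 lower than in driver cells (adjusted p = 0.0388). It was 0.94 higher than in non-induced cells (adjusted p = 0.0452). The controls differed by −1.91, with less TNF in non-induced cells (adjusted p = 0.0022). TNF was late, at a Ct of 32.5 to 35.5, past the 32 set here as near the limit. Non-induced replicate 1, at 35.5, was held at 35 in the fit.

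Of 7 matrix ligands and integrins (THBS1, COL18A1, ITGA1, ITGA2, ITGB1, ITGAV and ITGB3), 2 rose and 1 fell against driver cells, and none rose and 3 fell against non-induced cells, again beside 23.5% and 24.1% of all genes. ITGA2, the alpha chain of a receptor for fibrillar collagen, the substrate of MMP1, fell by 0.87 against driver cells (adjusted p = 0.0290) and by 0.92 against non-induced cells (adjusted p = 0.0270). ITGA1, the alpha chain of another collagen receptor, fell by 1.15 against non-induced cells (adjusted p = 0.0303). Against driver cells it stood at −0.31 (adjusted p = 0.557). The controls differed in ITGA1 by 0.84, with more in non-induced cells (adjusted p = 0.151). ITGB3, the beta chain of a vitronectin receptor, rose by 1.14 against driver cells (adjusted p = 0.0199) and stood at 0.88 against non-induced cells (adjusted p = 0.0525). Its plates did not overlap in either comparison, as for 5 of the 7 listed genes in each. Over all genes tested the shares without overlap were 54.1% and 61.4%. THBS1, a matrix glycoprotein, rose by 1.34 against driver cells (adjusted p = 0.0021) and fell by 0.71 against non-induced cells (adjusted p = 0.0492). The controls differed in THBS1 by 2.05, with more in non-induced cells (adjusted p = 0.00027).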

How the data were processed

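RNA from 6 samples, 1 plate each, was measured by the authors on a Cancer PathwayFinder PCR array with SYBR Green on a Roche Lightcycler. The authors deposited Ct values of 89 genes per plate without normalization. How the threshold was set is not given in the sources used here. A second deposited table holds the authors' own fold changes and was not used. Groups were taken from the labels.

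Ct values over 35 were set to 35. The plate mean of B2M, HPRT1 and GAPDH, the reference genes of the study's methods, was subtracted (ΔCt). limma 3.58.1 (R 4.3.3) was fitted to −ΔCt of all 6 plates with 3 group means, with eBayes and Benjamini-Hochberg adjustment over all genes tested (threshold 0.05). Genes at 35 or later on every plate compared and the 3 references were not tested. Every adjusted p is from this fit or from a named alternative. The fit was tested on simulated data with independent noise of the same spread for all genes. No offset was added to a whole plate there, so the test does not cover such offsets. Python 3.11.15 and matplotlib 3.10.9 were used for the rest. The precision is limited by 2 plates per condition.

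The genes and lists were chosen with earlier results of these data known. Named were all MMP and TIMP genes, the listed genes as counts with values for those called and at most 4 others per list, and the 3 genes of most like pattern per detected member. Alternatives were other references, a Ct limit of 40, other filters on late genes, a replicate block, only the plates compared, other variance models and leaving out each plate. A crossed block and the values of replicate 1 were added after seeing the data. Of the 89 names, 88 matched a RefSeq symbol and 1 a synonym. Values of 1 further gene of the proteolysis system are not reported here.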

Additional observations from a re-analysis of the deposited data

How the results depend on the processing

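Of the 5 genes, those called against driver cells were MMP9 and TIMP3 with B2M alone (2; TIMP3 is held at 35 there and follows the reference) and MMP1 and TIMP1 with GAPDH alone (2). A variance trend called TIMP1 in place of MMP1 against driver cells, and MMP2 in its place against non-induced cells. Against driver cells the number called was 0 with HPRT1 alone, the median of detected genes, a Ct limit of 40, genes of mean Ct under 30, the replicate block, only the 4 plates compared, no moderation and the crossed replicate block. Against non-induced cells 2 (MMP2 and MMP9) were called with B2M alone. The number was 0 with HPRT1 alone, the Ct limit of 40, genes of mean Ct under 30, only the 4 plates, no moderation and the crossed block. Leaving out a plate gave 0 to 1 in both. MMP1 could not be called among genes of mean Ct under 30, where it was not tested. Between the controls no gene of the 5 was called in any alternative.

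Among all genes, against driver cells 44 were called with B2M alone, 11 with HPRT1 alone, 10 when the Ct limit was 40, 11 with the 4 plates, 5 without moderation and 9 with the crossed block (11 to 17 without a plate). Against non-induced cells the counts were 42 with B2M alone, 6 with HPRT1 alone, 8 at the limit of 40 and 4 without moderation (3 to 21 without a plate). Between the controls they were 2 with HPRT1 alone, 1 at the limit of 40, 2 with the replicate block, 1 without moderation and 2 with the crossed block (1 to 9 without a plate). The title marks are not stated to pair plates. They gave only 2 pairs of induced and non-induced plates, with deviations correlated at −0.17. Driver plates share only mark 2 with the CaSm plates. There the difference of the mark 2 plate from the other plate of its condition was compared. Its correlation was −0.35 between induced and driver cells and 0.26 between non-induced and driver cells.

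Against driver cells the sign of MMP2 turned with HPRT1 alone (0.015) and GAPDH alone (0.335), and without a plate it ran from −0.36 to 0.25. Between the controls MMP1 turned with B2M alone (−0.015) and the median (−0.495; −0.14 to 0.24 without a plate), MMP9 with the median (−0.41) and replicate 2 plates (−0.17; −0.12 to 0.39 without a plate), and TIMP1 with the median (−0.36).

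With a Ct limit of 40 the balance of all proteases against both inhibitors differed by 0.80 against driver cells, −0.80 against non-induced cells and 1.604 between the controls, where TIMP3 decides it. Without TIMP3 it was −0.505 and −0.57 in the first 2 of these. On replicate 2 plates it was −0.45 against driver cells and −0.0033 between the controls. Without a plate it ran from −0.30 to 0.27 against driver cells, −0.47 to 0.09 against non-induced cells and 0.02 to 0.33 between the controls. Against TIMP1 alone it was −0.84 and −0.82 on replicate 2 plates and −0.32 on replicate 1 plates against non-induced cells. The cause of these changes was not tested. The crossed block and the replicate 1 values were chosen after seeing the data. The detection limit leaves TIMP3 without a fold change, and 2 plates per condition limit the precision of all 5 genes.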
